A study of Sus scrofa with 15 samples.

Results

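Read assembly in cloned pig embryos yielded transcripts that lie at annotated gene loci but are counted as features of their own, and 4999 of these are described here. They were selected by 3 conditions: an assembled identifier (MSTRG), a locus that also holds at least 1 known gene, and a mean normalised signal of at least 10 over all 15 libraries. The deposited table held 43294 features after 241 repeated entries were removed, made up of 28224 known genes and 15070 assembled transcripts. A known gene shared the locus of 11213 assembled transcripts, and 6214 of these fell below the threshold. The lowest mean inside the threshold was 10.01 and the highest outside was 9.992, with 139 members between 10 and 11 and 182 transcripts between 9 and 10 outside. The members sat at 4128 loci with 9947 known genes, among them 6930 protein-coding genes, 2049 lncRNA genes and 711 pseudogenes. Because the mean level chose the members, their levels are given as a description. With the libraries of 1 group set to 0, 1190 of the 4999 would have missed the threshold. Where a named member depended in this way on the higher group of a comparison, only its values are given, without a fold change or test.

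The libraries came from 5 groups with 3 libraries each. PFF were primary fetal fibroblasts cultured for a few passages, the donors of the nuclei. SCNT4c and SCNT8c were embryos made by somatic cell nuclear transfer and collected at the 4-cell and 8-cell stage without further treatment. SCNT4c-KG were 4-cell cloned embryos that received mRNA of KDM4A, a demethylase of H3K9me3, together with GSK126, a compound that blocks EZH2, the H3K27 methyltransferase. SCNT4c-TDG were 4-cell cloned embryos from fibroblasts carrying a doxycycline-inducible vector for TDG, a DNA glycosylase of the DNA demethylation pathway, and doxycycline was given. A group with doxycycline but without the TDG vector was not analysed here. The vector was transfected into the fibroblasts, which were then selected with puromycin, so TDG, doxycycline and these steps cannot be told apart. Nor was a group with KDM4A mRNA alone, GSK126 alone or injection alone analysed, so these cannot be told apart in SCNT4c-KG. Each embryo library was a pool of 30 embryos whose cDNA was amplified, whereas PFF RNA was extracted with another reagent. The p-values therefore measure the spread between pooled libraries, and in such bulk samples fewer cells of a type and less RNA per cell cannot be told apart. The SCNT4c libraries are called a, b and c, because the labels number them in conflicting ways.

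A transcript assembler joins aligned reads into transcript models without needing an annotation. Where such a model overlaps an annotated gene but does not match it, a comparison with the annotation places both in 1 locus under separate identifiers. In an early embryo the first transcripts are those stored in the oocyte, which are polyadenylated, translated and then degraded, while the embryonic genome becomes active in the same period. Growth factors of the oocyte such as GDF9 and BMP15 mark the first class, and transcription factors such as KLF17, ZSCAN4 and NANOG mark the second. The exon structure of the assembled transcripts is not in the table used here, so whether a member is another form of the known gene or a unit that overlaps it cannot be told apart. The way the counting treated reads in the overlap is not given in the sources used here either. A share of the locus signal is a share of reads, not a level per length.

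Windows around the annotated starts of 5 genes show where these starts lie relative to loci whose reads fell almost wholly on the assembled transcript. At GDF9 and LIN28A the bases after the annotated start open with atg, and at COL5A1 an atg follows within a few bases. Whether transcription begins at these annotated starts is therefore not shown by the windows. The sequences are from RefSeq on Sscrofa11.1, 250 bases before to 50 bases after the annotated start of the gene, read 5′ to 3′ on the strand of the gene. The capitals mark GGGCGG and CACCC on either strand, the core letters bound by SP and KLF zinc fingers.
GDF9 (chr2:135184402-135184701, minus strand): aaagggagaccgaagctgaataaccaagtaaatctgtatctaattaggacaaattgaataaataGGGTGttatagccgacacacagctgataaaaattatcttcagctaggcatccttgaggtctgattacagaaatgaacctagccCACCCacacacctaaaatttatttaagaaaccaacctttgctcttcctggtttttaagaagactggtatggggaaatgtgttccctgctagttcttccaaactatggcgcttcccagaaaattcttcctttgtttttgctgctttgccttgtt
BMP15 (chrX:44612872-44613171, plus strand): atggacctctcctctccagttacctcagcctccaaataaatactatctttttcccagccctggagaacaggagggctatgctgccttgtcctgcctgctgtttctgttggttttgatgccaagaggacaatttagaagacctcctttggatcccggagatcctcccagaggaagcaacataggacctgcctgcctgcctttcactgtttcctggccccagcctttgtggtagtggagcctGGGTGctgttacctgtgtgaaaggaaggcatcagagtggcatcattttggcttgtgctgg
LIN28A (chr6:83805928-83806227, plus strand): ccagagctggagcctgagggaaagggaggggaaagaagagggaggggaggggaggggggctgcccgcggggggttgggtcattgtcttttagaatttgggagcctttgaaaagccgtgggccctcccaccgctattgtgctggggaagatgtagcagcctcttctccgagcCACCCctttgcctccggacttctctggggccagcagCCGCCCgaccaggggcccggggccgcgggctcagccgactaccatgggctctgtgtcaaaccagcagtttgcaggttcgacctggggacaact
KLF17 (chr6:167188369-167188668, minus strand): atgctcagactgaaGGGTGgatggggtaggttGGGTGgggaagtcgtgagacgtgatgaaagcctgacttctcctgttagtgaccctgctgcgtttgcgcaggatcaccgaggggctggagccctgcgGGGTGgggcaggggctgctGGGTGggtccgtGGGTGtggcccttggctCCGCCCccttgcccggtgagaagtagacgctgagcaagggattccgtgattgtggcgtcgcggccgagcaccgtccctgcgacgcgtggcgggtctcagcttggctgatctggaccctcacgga
COL5A1 (chr1:273933969-273934268, plus strand): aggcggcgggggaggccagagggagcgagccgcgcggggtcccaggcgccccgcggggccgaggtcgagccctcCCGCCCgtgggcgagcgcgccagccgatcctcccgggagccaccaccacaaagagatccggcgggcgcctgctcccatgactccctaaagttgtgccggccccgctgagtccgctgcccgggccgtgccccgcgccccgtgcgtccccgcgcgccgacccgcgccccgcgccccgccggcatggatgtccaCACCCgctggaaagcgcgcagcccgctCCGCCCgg

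The GC content rose from 39.3% in the GDF9 window and 52.0% in the BMP15 window to 64.0% at LIN28A, 65.0% at KLF17 and 79.3% at COL5A1. CACCC matched 5 times at KLF17, 2 times at GDF9 and 1 time in each of the others. GGGCGG matched 2 times at COL5A1 and 1 time each at LIN28A and KLF17. TATAAA and CCAAT, also searched on both strands, had 0 matches in the 5 windows. Over 19559 windows of the same length at annotated starts of protein-coding genes, 59.3% held CACCC, 50.6% GGGCGG, 35.4% CCAAT and 10.9% TATAAA. The loci reached beyond these annotated starts, by 2366 bp at LIN28A, 1848 bp at GDF9, 718 bp at BMP15, 457 bp at COL5A1 and 141 bp at KLF17. They also ran past the annotated 3′ ends, by 2648 bp at LIN28A, 2318 bp at KLF17, 2116 bp at COL5A1, 1069 bp at GDF9 and 785 bp at BMP15.

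The last 30 bases of the locus, on the strand of the gene, show whether the far end of the assembly carries a polyadenylation signal (AATAAA or ATTAAA, in capitals where present).
LIN28A (chr6:83821169-83821198, plus strand): tcaacgAATAAAgacttattggtactgaaa
GDF9 (chr2:135180425-135180454, minus strand): aatctaccaagcaaaagtaactcagatgca
BMP15 (chrX:44621331-44621360, plus strand): tcaatgttcacatgtctcatttcccatcag
KLF17 (chr6:167174516-167174545, minus strand): ttttttataggtaacacagaaggagaattg

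The signal was present near the assembled end of LIN28A, with 0 matches at the other 3 ends shown. These motifs were added after the data had been seen. At 1403 loci with exactly 1 known gene and 1 assembled transcript, the locus stayed within the gene at 423, passed only its 5′ end at 326, only its 3′ end at 267 and both ends at 387. Among the loci that passed the end in question, the median extension was 0.888 kb upstream and 1.76 kb downstream. Where the locus ended with the annotated gene, the last 50 bases held the signal at 74.2% of loci that stayed within the gene and at 74.8% of those that passed only the 5′ end. Where the locus ran past the annotated 3′ end, the share was 18.7% (50 of 267) and 24.5% (95 of 387) at the new end, against 56.2% and 52.5% at the annotated end of the same genes. Over 19560 protein-coding genes the annotated end held it at 62.4% and the annotated start at 1.75%. The new ends therefore held the signal less often than annotated ends and more often than starts, as counts without a test. Windows of matched base composition were not counted, so the starts give no baseline for the new ends.

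Reads recovered from the signal numbered 22224949 to 22868038 per library in PFF, 20460653 to 22530486 in SCNT4c, 12354649 to 15390472 in SCNT4c-KG, 17757929 to 19564459 in SCNT4c-TDG and 18083559 to 19549670 in SCNT8c. The targeted genes were checked at their own entries, none of which has a member at its locus. TDG lay at 49860 to 59940 in SCNT4c-TDG, 3886 to 4738 in SCNT4c-KG, 939.4 to 2541 in SCNT4c, 2052 to 2506 in SCNT8c and 1024 to 1237 in PFF, and KDM4A at 1429 to 1476 in SCNT4c-KG against 133.7 to 313.1 in SCNT4c. KDM4A was also at 554.6 to 918.2 in SCNT4c-TDG, which received no KDM4A mRNA, at 47.54 to 161.5 in SCNT8c and at 4932 to 5150 in PFF. EZH2, whose protein GSK126 blocks, was at 313.8 to 344.3 in SCNT4c, 914.8 to 1245 in SCNT4c-KG and 983.2 to 1208 in SCNT4c-TDG. The summed signal of 10 fibroblast markers was 3865000 to 4098000 in PFF. It was 4263 to 5460 in SCNT4c, 2485 to 3612 in SCNT4c-KG, 1626 to 2153 in SCNT4c-TDG and 2155 to 2448 in SCNT8c. The sum of 10 oocyte and early embryo markers was 211000 to 239000 in SCNT4c, 61510 to 102800 in SCNT4c-KG, 23050 to 30490 in SCNT4c-TDG, 56490 to 144900 in SCNT8c and at most 26.22 in PFF, although the entries of GDF9 and BMP15 themselves were at 0 in every library. The sum of the 9 cumulus and granulosa markers in the table was 553.0 to 609.6 in PFF, 1389 to 1645 in SCNT4c and 1415 to 1915 in SCNT8c. It was lower than in SCNT4c in both treated groups, at 849.4 to 1102 in SCNT4c-KG and 502.7 to 600.4 in SCNT4c-TDG. SCNT8c replicate 3 stood apart from the other SCNT8c libraries, with 9.10% of its reads in members against 6.50% and 5.14%.

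Members held a small share of donor cell reads and a larger share of embryo reads. The share was 1.63% to 1.66% in PFF, 8.62% to 9.90% in SCNT4c, 5.19% to 5.91% in SCNT4c-KG and 5.37% to 5.89% in SCNT4c-TDG. The PFF and the SCNT4c libraries did not overlap, nor did SCNT4c and either treated group. All assembled transcripts, members included, held 1.88% to 1.96% in PFF and 10.9% to 12.3% in SCNT4c. They held 6.56% to 7.51% in SCNT4c-KG and 6.92% to 7.67% in SCNT4c-TDG, so this order was not particular to members. A mean of at least 10 was reached by 2097 members in PFF, 4314 in SCNT4c, 4217 in SCNT4c-KG, 4090 in SCNT4c-TDG and 4237 in SCNT8c. In all 5 groups it was reached by 1382 members, and in 1 group alone by 181, of which 116 were in PFF. The direction of this contrast with PFF is not read as a result, because the threshold averaged 12 embryo libraries and 3 PFF libraries.

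**Figure D1:**
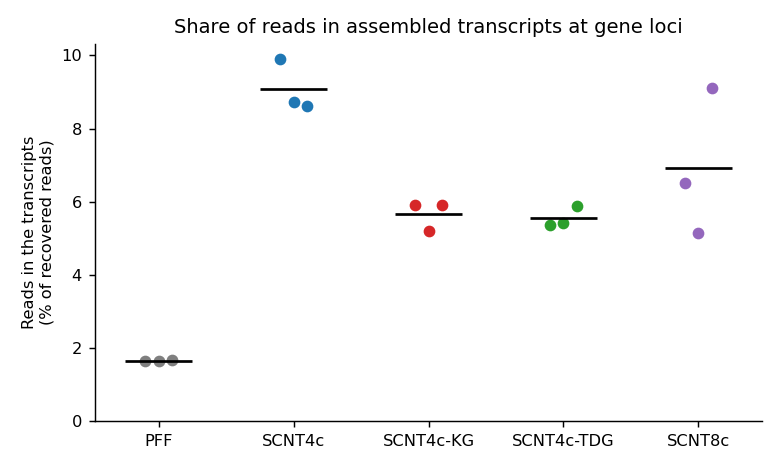
Percent of recovered reads that fell on the 4999 members in each library (y axis), by group (x axis), with each point 1 library and the bar the group mean. PFF libraries sit between 1.63% and 1.66%, SCNT4c between 8.62% and 9.90%, and SCNT8c replicate 3 at 9.10% lies above the other SCNT8c libraries.

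At many loci the assembled transcript took the reads and the annotated gene was left with few. The known genes of the locus summed to a mean of exactly 0 for 304 members, below 1 for 597 and below 10 for 1280. A member held over 50% of the signal of its locus in 2043 of 4999 cases and over 90% in 965. The share followed the extent of the locus at the 1403 loci with 1 gene and 1 transcript. Its median was 35.9% where the locus stayed within the gene, 67.2% where it passed only the 5′ end, 88.3% where it passed only the 3′ end and 99.1% where it passed both. The known gene lay below a mean of 1 at 39 of 423, 70 of 326, 73 of 267 and 209 of 387 of these loci in the same order. The median member had a mean of 46.5 (quartiles 21.2 and 127) and the median locus spanned 124 kb (51.5 to 286 kb). Members at 1 locus are not independent, and 1567 members shared a locus with another member, up to 6 at 1 locus. Several known genes shared 2451 of the 4128 loci, up to 45 at 1 locus, where a member cannot be assigned to a single gene. Below, a locus is named by its known genes with a symbol, and those of ARGFX, CPEB1, DLEU7, GPAT2, GPC5, NXPH1, SMARCA2, TMEM178A, KDM6B, BTG4, HSPA1L, SELENOP, SLITRK2, SPAG16 and TPT1 also hold known genes not named.

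**Figure D2:**
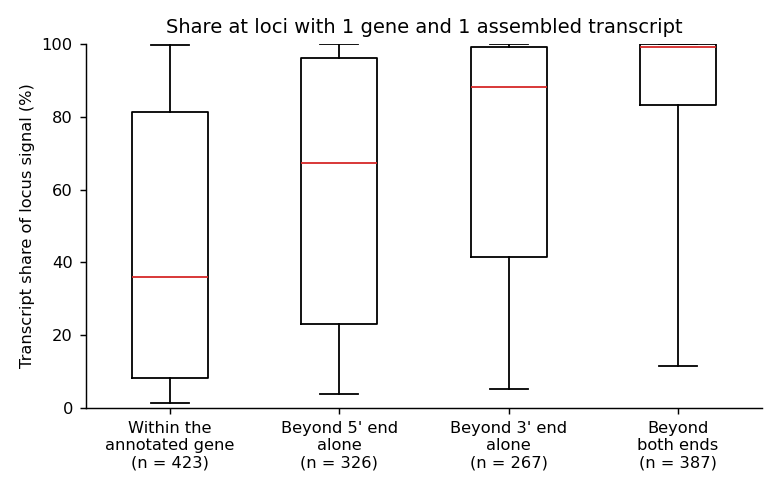
Share of the locus signal held by the assembled transcript over 15 libraries (percent, y axis) at 1403 loci with 1 known gene and 1 assembled transcript, grouped by how far the locus reaches beyond the annotated gene (x axis), with boxes for the quartiles, a red line for the median and whiskers for the 5th and 95th percentiles. The median rises from 35.9% within the gene to 67.2%, 88.3% and 99.1% for loci beyond the 5′ end, the 3′ end and both ends.

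The 10 most abundant members included that of SLC30A1, at a locus with 1 known gene. At SLC30A1, a zinc exporter (chr9:131610095-131641019), the member (MSTRG.93063) lay at 1805.5, 2035.2 and 1671.0 in PFF and at 13244.4, 18055.4 and 23264.1 in SCNT4c, while the gene itself did not exceed 9.535 in any library. It fell in SCNT4c-KG to 1496.3, 1873.1 and 2479.4 (log2 fold change -3.21 ± 0.38 SE, limma adjusted p = 1.65e-05). In SCNT4c-TDG the values were 10548.3, 8966.6 and 7091.4, a log2 difference of -1.02 ± 0.38 with an adjusted p of 0.0507 that missed the threshold. It passed with a pseudocount of 10 (adjusted p = 0.0418), a minimum mean of 50 (0.0401), in a fit of the 2 groups alone (0.00471) and without SCNT4c library a (0.0447), and weakened most after quantile normalisation (-0.68, adjusted p = 0.273). The direct comparison put SCNT4c-TDG above SCNT4c-KG by 2.20 ± 0.38 on the log2 scale (adjusted p = 0.00141).

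Cloned 4-cell embryos and their donor cells were compared to see which assembled loci belong to either cell state. A change here and below means an adjusted p (Benjamini-Hochberg, over all features tested) under 0.05 and a fold above 2 on the log2(signal + 1) scale. Of 4370 members tested, 3409 differed (78.0%), 2758 higher and 651 lower in SCNT4c. Over all 19287 features tested, 78.2% differed, 39.7% higher and 38.5% lower. The share changed was near that of all features, and the direction was not read because the threshold favoured embryo signal. Of the 3409, 513 reached the threshold only through the group in which they were higher. The median log2 difference was 3.11 for members and 0.07 for all features. The extraction of RNA differed between donor cells and embryos in the same way as the groups, so the 2 cannot be told apart.

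Members higher in the donor cells included those at the loci of COL5A1, SPEG, FAM3B with MX2, and FBN1. At COL5A1, a fibrillar collagen chain (chr1:273933762-274085380), the member (MSTRG.17485) stood at 60301.2, 64378.1 and 54523.8 in PFF and at 4.732, 3.495 and 4.151 in SCNT4c, whereas the COL5A1 entry held 42.76 to 62.41 in PFF and 0 in SCNT4c. FBN1, which encodes fibrillin of elastic microfibrils, had a member (MSTRG.7792) at 11044.9 to 12366.7 in PFF and 15.78 to 74.28 in SCNT4c (-8.17 ± 0.56, adjusted p = 2.54e-05). For SPEG, a kinase of striated muscle, the member (MSTRG.138669) was at 1402.8 to 1460.8 in PFF and 0 in SCNT4c. The member at the locus of FAM3B and the interferon-induced MX2 (MSTRG.122051) was at 3027.2 to 6626.7 in PFF and 2.491 to 13.98 in SCNT4c. COL5A1, SPEG and the FAM3B locus are members only through PFF.

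Members without a read in PFF and with high signal in SCNT4c included those of COL4A6 and GALNT17. COL4A6, a chain of type IV collagen (chrX:88634925-88750938), had a member (MSTRG.158436) with 0 reads in PFF and 21501.7, 10736.9 and 9741.5 in SCNT4c, at least 3800-fold higher against a floor of 3 reads per library. It fell to 3296.4, 2974.6 and 1927.9 in SCNT4c-KG (-2.30 ± 0.37, adjusted p = 0.00025) and to 3164.3, 2717.8 and 4167.8 in SCNT4c-TDG (-1.99 ± 0.37, adjusted p = 0.000822). GALNT17, of the family that starts mucin-type O-glycans, had a member (MSTRG.28851) at 0 in PFF and 12795.6 to 17944.5 in SCNT4c, at least 4280-fold higher. That transcript also fell in both treated groups, to 1276.6 to 1979.8 in SCNT4c-KG (-3.33 ± 0.54, adjusted p = 0.000274) and to 520.1 to 838.6 in SCNT4c-TDG (-4.62 ± 0.54, adjusted p = 1.74e-05). In SCNT8c it spread widely, with 3690.4, 1538.7 and 13356.7.

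At 809 loci with 1 gene and 1 transcript, both tested, 294 pairs changed in the same direction and 229 in opposite directions. The transcript alone changed at 98 loci, the gene alone at 156 and neither at 32. The log2 ratio of member to known genes changed for 2343 of 3196 members tested (73.3%). Neither these counts nor their direction are read as a result, because the threshold that chose the members favoured transcripts with embryo signal. OSR1, a zinc finger factor of intermediate mesoderm, was listed at 449.6 to 498.2 in PFF and 0 in SCNT4c, while its member (MSTRG.36688) was at 0 in PFF and 247.7 to 296.2 in SCNT4c. TRIM8, a RING finger ubiquitin ligase, was at 1100.7 to 1258.3 in PFF and 4.982 to 71.77 in SCNT4c, while its member (MSTRG.129537) was at 0 and at 39.85 to 70.20. The TRIM8 member is a member only through SCNT4c. The locus of SND1 and LRRC4 showed the same crossing, with known genes at 4015.7 to 4327.6 in PFF and 30.72 to 89.92 in SCNT4c, and a member (MSTRG.150580) at 2.443 to 10.19 and 5328.6 to 6772.9. Its log2 ratio differed by 15.69 ± 0.66 (adjusted p = 5.52e-06). The opposite held at SPAG16, a protein of the sperm axoneme, whose locus it shares with VWC2L. There the member (MSTRG.138557) was at 2642.3 to 3079.8 in PFF and 3.155 to 20.10 in SCNT4c and the known genes were at 74.52 to 122.3 and 8104.3 to 11828.8, and without the PFF signal the member would have missed the threshold.

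**Figure D3:**
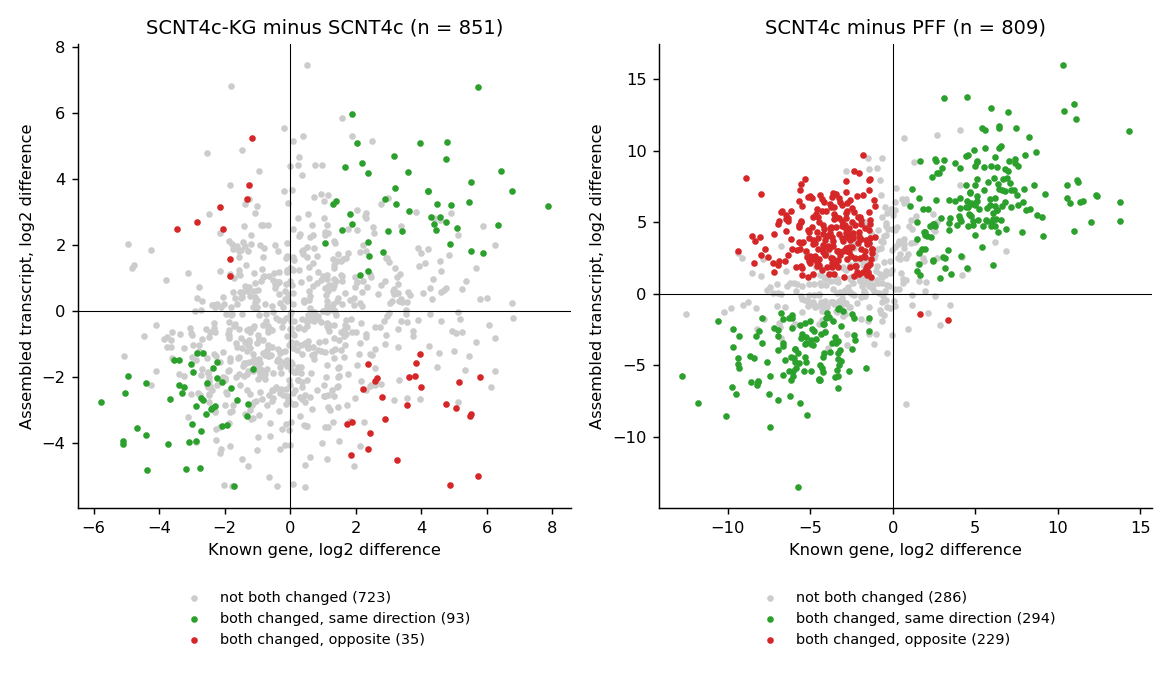
Log2 fold change of the known gene (x axis) against that of the assembled transcript at the same locus (y axis) at loci with 1 gene and 1 transcript, for SCNT4c-KG against SCNT4c (851 loci) and SCNT4c against PFF (809 loci), with green points for pairs that changed in the same direction and red points for opposite directions. In the second panel 229 pairs changed in opposite directions, and their side is not read because the mean that chose the transcripts averaged 12 embryo libraries and 3 PFF libraries.

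At the loci of GDF9, BMP15 and LIN28A the embryo signal lay on the assembled transcript alone. GDF9, a growth factor that the oocyte secretes to its follicle cells (chr2:135180425-135186299), had 0 reads on its own entry in all 15 libraries. Its member (MSTRG.26684) read 96.51, 89.15 and 106.1 in PFF and 20045.7, 9639.4 and 8067.7 in SCNT4c (6.89 ± 0.35, adjusted p = 7.72e-06). It fell to 5129.2, 2313.4 and 3345.7 in SCNT4c-KG and to 1687.5, 1623.2 and 1396.4 in SCNT4c-TDG. Neither treated group overlapped SCNT4c. The log2 differences were -1.76 ± 0.50 (adjusted p = 0.012) and -2.89 ± 0.50 (adjusted p = 0.000448), and the call in SCNT4c-KG was lost without SCNT4c library a (adjusted p = 0.0651) or without SCNT4c-KG replicate 2 (adjusted p = 0.0596). In SCNT8c the values were 4835.8, 3738.4 and 17778.2. The summed oocyte and early embryo markers given above were also lower in both treated groups than in SCNT4c. So were the summed fibroblast markers and the summed cumulus and granulosa markers. The part of these differences in the falls was not tested.

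BMP15, the partner of GDF9 in the oocyte (chrX:44612404-44621360), was likewise at 0 on its own entry throughout. Its member (MSTRG.154979) had 0 reads in PFF and 6343.8, 6010.3 and 6065.1 in SCNT4c, at least 1670-fold higher. Unlike GDF9 it was higher in SCNT4c-KG, at 14062.9, 9884.4 and 16647.5, and lower in SCNT4c-TDG, at 1389.0, 1311.0 and 832.5. The groups did not overlap. Against SCNT4c the log2 differences were 1.11 ± 0.37 (adjusted p = 0.0292) and -2.42 ± 0.37 (adjusted p = 0.000184), and SCNT4c-TDG lay below SCNT4c-KG by -3.52 ± 0.37 (adjusted p = 3.97e-05). The rise in SCNT4c-KG did not keep its call in 5 of the 6 fits that left out 1 library (adjusted p 0.0305 to 0.107), whereas the other 2 differences kept theirs in every such fit.

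LIN28A, an RNA-binding protein that blocks maturation of let-7 miRNAs (chr6:83803812-83821198), was also at 0 on its own entry. Its member (MSTRG.60642) had 0 reads in PFF and 5040.0, 5403.9 and 6295.9 in SCNT4c. SCNT4c-KG held 542.3, 256.3 and 805.1 and SCNT4c-TDG 215.8, 274.6 and 320.6. The falls were -3.52 ± 0.53 (adjusted p = 0.00014) and -4.37 ± 0.53 (adjusted p = 2.29e-05) on the log2 scale. SCNT8c held 1148.3, 740.7 and 4061.3, and its difference of -1.88 ± 0.53 (adjusted p = 0.0497) lost its call in 5 of 6 fits without 1 library (adjusted p 0.000282 to 0.175).

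The members at the loci of CPEB1, BTG4 and CDC25B fell in both treated groups as well. CPEB1 binds stored mRNAs and governs their polyadenylation. The member at its locus (MSTRG.71216), shared with 1 other known gene, was at 6624.6, 4238.1 and 4268.4 in SCNT4c, 389.6 to 632.7 in SCNT4c-KG (-3.40 ± 0.64, adjusted p = 0.000833) and 216.6 to 244.7 in SCNT4c-TDG (-4.42 ± 0.64, adjusted p = 0.000108). BTG4 links the CCR4-NOT deadenylase to maternal mRNAs. The member at its locus (MSTRG.87777), shared with C9H11orf88 and MIR34C-1, was at 2582.1 to 3683.4 in SCNT4c, 132.0 to 317.8 in SCNT4c-KG (-3.72 ± 0.65, adjusted p = 0.000481) and 181.0 to 368.0 in SCNT4c-TDG (-3.59 ± 0.65, adjusted p = 0.00068). The known genes of this locus went the other way, with 1477.0 to 1697.0 in SCNT4c and 4930.3 to 7439.0 in SCNT4c-KG, so that the log2 ratio fell by 5.62 ± 0.60 (adjusted p = 0.000106) there and by 4.46 ± 0.60 (adjusted p = 0.000694) in SCNT4c-TDG. CDC25B, the phosphatase that activates CDK1 when meiosis resumes, had a member (MSTRG.146852) at 1141.3, 1654.2 and 1711.2 in SCNT4c, 320.2, 114.2 and 172.4 in SCNT4c-KG and 9.199, 42.19 and 22.19 in SCNT4c-TDG. All 3 differences among these groups passed the test, at -2.99 ± 0.70 for SCNT4c-KG (adjusted p = 0.00385), -6.09 ± 0.70 for SCNT4c-TDG (adjusted p = 1.41e-05) and -3.10 ± 0.70 between them (adjusted p = 0.0072). In PFF it was at 19.55 to 24.20, and the SCNT4c-TDG values overlapped that range.

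**Figure D4:**
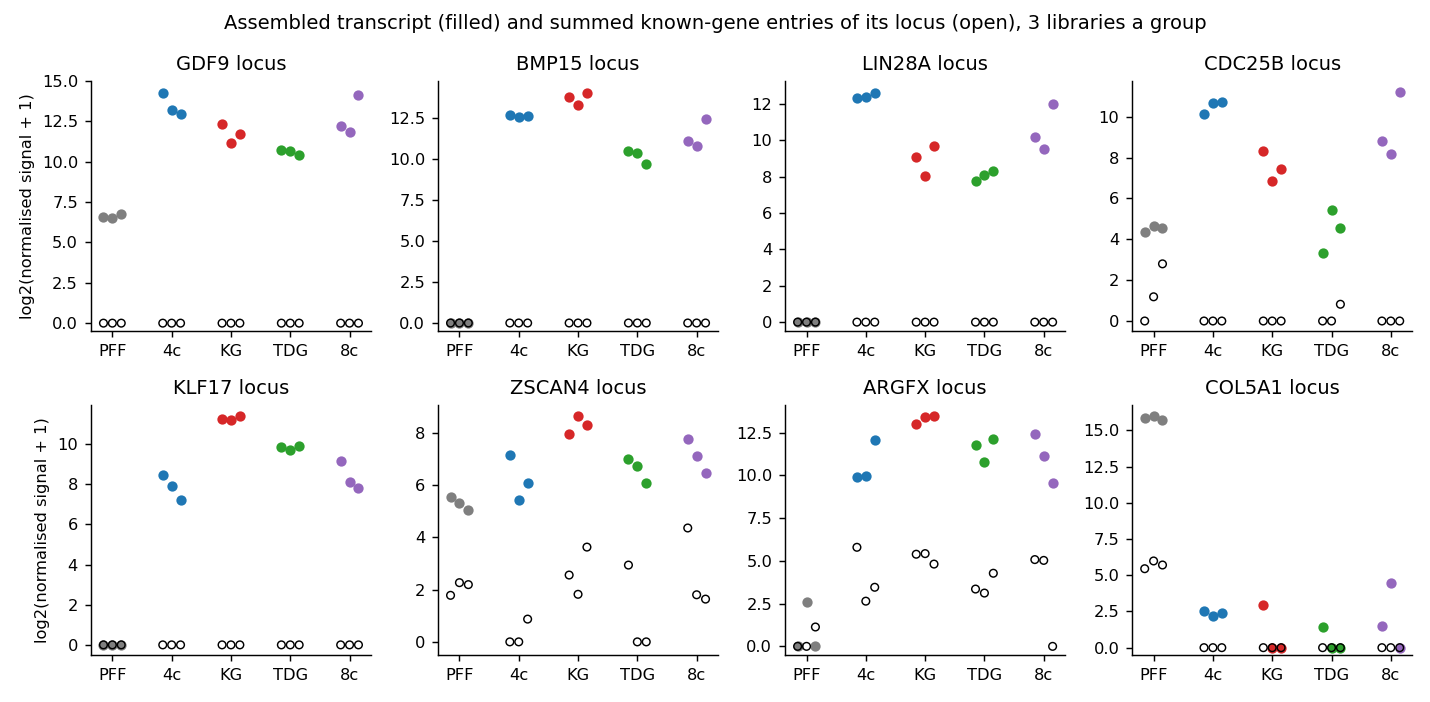
Level of the assembled transcript (filled points) and of the known genes of its locus (open points) in each of the 15 libraries, as log2(signal + 1) on the y axis, by group on the x axis, for GDF9, BMP15, LIN28A, CDC25B, KLF17, ZSCAN4, ARGFX and COL5A1. The known entries of GDF9, BMP15, LIN28A and KLF17 lie at 0 in every library, and the BMP15 transcript is above SCNT4c in all 3 SCNT4c-KG libraries and below it in all 3 SCNT4c-TDG libraries.

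Members at the loci of KLF17, ZSCAN4 and ARGFX, transcription factors of genome activation, rose in SCNT4c-KG. KLF17, a KLF-family zinc finger factor of the early embryo (chr6:167174516-167188559), had 0 reads on its own entry everywhere and a member (MSTRG.66682) at 0 in PFF. That member was at 346.3, 242.9 and 150.3 in SCNT4c, 2411.1, 2384.5 and 2693.1 in SCNT4c-KG and 940.8, 827.7 and 961.0 in SCNT4c-TDG. It rose by 3.41 ± 0.39 (adjusted p = 1.26e-05) and 1.96 ± 0.39 (adjusted p = 0.0015) on the log2 scale. SCNT4c-TDG stayed below SCNT4c-KG (-1.46 ± 0.39, adjusted p = 0.0201), a call that was lost in each of the 6 fits without 1 library (adjusted p 0.0565 to 0.0807). At 8 cells the values were 579.7, 277.7 and 222.9, which overlapped SCNT4c.

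ZSCAN4, a factor of the early cleavage embryo linked to telomere maintenance, shares its locus (chr6:62300586-62330484) with 1 other known gene. The member (MSTRG.58884) was at 142.8, 42.82 and 67.25 in SCNT4c and at 246.7, 402.3 and 316.3 in SCNT4c-KG (2.07 ± 0.54, adjusted p = 0.00733). In SCNT4c-TDG it was at 128.8, 105.9 and 67.33, which overlapped SCNT4c (0.38 ± 0.54, adjusted p = 0.614). The difference between the treated groups (-1.69 ± 0.54, adjusted p = 0.0427) was lost in each of the 6 fits without 1 library (adjusted p 0.0689 to 0.163). ARGFX, a paired-like homeobox gene of the cleavage stage, shares its locus with 1 other known gene and has a member there (MSTRG.118161) with 937.8, 1004.9 and 4225.2 in SCNT4c against 8161.0, 10866.7 and 11227.1 in SCNT4c-KG (2.65 ± 0.64, adjusted p = 0.00468). Its SCNT4c-TDG values of 3544.8, 1791.9 and 4499.9 overlapped SCNT4c and did not pass (0.95 ± 0.64, adjusted p = 0.266).

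At the locus of NANOG, the pluripotency homeobox gene, and its neighbour NANOGNB, the known entries together did not exceed 3.321 in any library. The member (MSTRG.52810) was at 9729.8, 6278.6 and 9214.3 in SCNT4c, 19050.0, 16277.8 and 14485.9 in SCNT4c-KG and 10971.5, 11548.6 and 12781.1 in SCNT4c-TDG. SCNT4c-KG did not overlap SCNT4c, with a log2 difference of 1.0 ± 0.26 (adjusted p = 0.00709) that did not exceed the fold limit. It passed by edgeR (1.09, adjusted p = 0.00661) and DESeq2 (1.14, adjusted p = 0.000251) on recovered reads and in 4 of 6 fits without 1 library, and was 0.66 (adjusted p = 0.0564) after quantile normalisation. The SCNT4c-TDG difference was 0.51 ± 0.26 (adjusted p = 0.139). PNRC1, a coregulator of nuclear receptors, shares a locus with SRSF12. The member there (MSTRG.3659) was at 107.5 to 150.6 in SCNT4c, 302.0 to 354.5 in SCNT4c-KG (1.33 ± 0.38, adjusted p = 0.0126) and 454.5 to 458.3 in SCNT4c-TDG (1.84 ± 0.38, adjusted p = 0.00178). Without SCNT4c library b the first of these had an adjusted p of 0.0503. UBTFL1, an HMG-box gene of the preimplantation embryo, had a low member (MSTRG.86650) at 4.151 to 9.612 in SCNT4c, 4.901 to 52.72 in SCNT4c-KG and 16.72 to 35.20 in SCNT4c-TDG. With either treated group set to 0 it would have missed the threshold.

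The first treatment comparison asked which members differed after KDM4A mRNA and GSK126. Of 4754 members tested in the fit of the 12 embryo libraries, 1556 changed in SCNT4c-KG against SCNT4c (32.7%), with 578 higher (12.2%) and 978 lower (20.6%). Among all 18942 features tested, 37.2% changed, 17.6% higher and 19.6% lower. Of the 1556, 218 reached the threshold of the member rule only through the group in which they were higher. The median log2 difference was -0.54 for members and -0.30 for all features, and scaling all libraries to the same total gave -0.62 and -0.38. The known genes of the locus summed to a mean below 10 for 424 of the 1556 changed members (27.2%) and for 1312 of the 4754 tested.

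**Figure D5:**
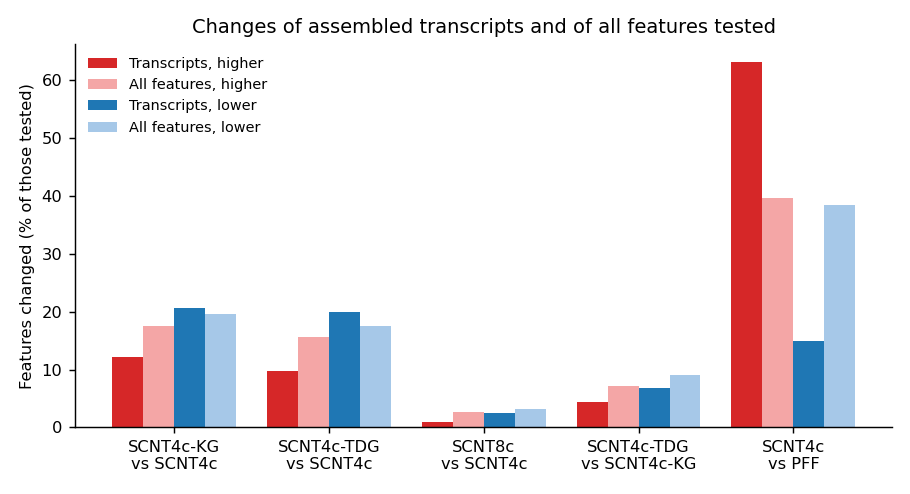
Percent of tested features called higher (red) or lower (blue) in each of the 5 comparisons (x axis), with dark bars for the assembled transcripts and light bars for all features tested. In SCNT4c-KG against SCNT4c, 12.2% of members were higher against 17.6% of all features, and 20.6% were lower against 19.6%.

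Rises in SCNT4c-KG included the members at the loci of YTHDF2 and KIF5C. YTHDF2, a reader of N6-methyladenosine that promotes mRNA decay, had a member (MSTRG.60761) at 14.99, 8.738 and 0 in SCNT4c against 640.3, 870.6 and 334.9 in SCNT4c-KG (6.73 ± 0.97, adjusted p = 0.000102), and at 98.68, 94.35 and 81.11 in SCNT4c-TDG (4.10 ± 0.97, adjusted p = 0.00471). The YTHDF2 entry was at 0 in SCNT4c and 3.267 to 29.92 in SCNT4c-KG. CDK16, a cyclin-dependent kinase, had a member (MSTRG.154824) at 0 to 1.748 in SCNT4c, 156.1 to 279.3 in SCNT4c-KG and 7.526 to 9.972 in SCNT4c-TDG, which met the threshold only through SCNT4c-KG. The motor protein gene KIF5C had a member (MSTRG.131521) at 1.748 to 16.61 in SCNT4c, 566.0 to 1055.2 in SCNT4c-KG (6.82 ± 0.83, adjusted p = 2.25e-05) and 173.1 to 222.7 in SCNT4c-TDG (4.96 ± 0.83, adjusted p = 0.000373). The KIF5C entry itself was at 39.32 to 142.8 in SCNT4c and 11.42 to 26.14 in SCNT4c-KG, and the log2 ratio rose by 8.62 ± 1.20 (adjusted p = 0.000457).

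At the locus of RUNDC1 and the ribosomal protein gene RPL27 the member (MSTRG.105949) rose, at 56.00 to 107.9 in SCNT4c and 4120.9 to 5862.9 in SCNT4c-KG (5.85 ± 0.37, adjusted p = 3.46e-08), with 288.4 to 397.1 in SCNT4c-TDG. USP7, a deubiquitinase with 0 reads on its own entry, had a member (MSTRG.30583) at 66.42 to 139.6 in SCNT4c and 1316.6 to 1852.8 in SCNT4c-KG (4.18 ± 0.53, adjusted p = 3.13e-05), with 292.3 to 407.8 in SCNT4c-TDG. These last 2 loci were chosen after their values were seen. The member at the SLITRK2 and TMEM257 locus (MSTRG.160148), which met the threshold only through SCNT4c-KG, was at 0 to 2.622 in SCNT4c, 319.2 to 596.4 in SCNT4c-KG and 30.10 to 42.85 in SCNT4c-TDG.

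Falls in SCNT4c-KG reached the detection limit at several loci. SLC25A37, the mitochondrial iron importer mitoferrin, had a member (MSTRG.123124) at 134.1, 129.3 and 48.16 in SCNT4c and 0 in SCNT4c-KG, at least 24.0-fold lower. DLEU7 had a member (MSTRG.99123) at 291.0, 113.6 and 140.3 and then 0, at least 42.0-fold lower. The member at RXFP2, the receptor of insulin-like peptide 3 (MSTRG.98676), was at 120.4 to 240.6 in SCNT4c and 0 to 16.34 in SCNT4c-KG (-6.15 ± 1.49, adjusted p = 0.00498). NXPH1, a neurexin ligand, had a member (MSTRG.90601) at 1897.2 to 3337.1 in SCNT4c and 5.700 to 109.1 in SCNT4c-KG (-6.05 ± 0.83, adjusted p = 6.22e-05). GPC5, a glypican of the cell surface, lies at a locus of 3 known genes whose member (MSTRG.103111), with 10.3% of the locus signal, was at 171.9 to 243.8 in SCNT4c and 0 to 9.801 in SCNT4c-KG (-6.52 ± 1.13, adjusted p = 0.000443). In all 5 cases SCNT4c and SCNT4c-KG did not overlap, which the rule that named these members required. The SCNT4c-TDG values also lay below SCNT4c, at 1.530 to 27.60 for SLC25A37, 0 to 21.48 for DLEU7, 9.972 to 28.31 for RXFP2, 93.66 to 248.7 for NXPH1 and 8.362 to 49.86 for GPC5.

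The second treatment comparison was between SCNT4c-TDG and SCNT4c. Of 4754 members, 1410 changed (29.7%), with 465 higher (9.78%) and 945 lower (19.9%), against 33.3% of all features, 15.7% higher and 17.6% lower. With all libraries at the same total the split was 592 higher and 775 lower, and the median log2 difference moved from -0.56 to -0.30 for members and from -0.26 to 0 for all features. The count rose to 2172 in a fit of these 2 groups alone and fell to 875 without SCNT4c-TDG replicate 1 and 925 without SCNT4c-TDG replicate 2. Of the 1410, 147 reached the threshold only through the higher group. For 367 of the 1410 changed members (26.0%) the known genes of the locus summed to a mean below 10.

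Members at the loci of KDM6A, SIMC1, STK35 and HSPA1L with HSP70.2 rose in SCNT4c-TDG, and each also rose in SCNT4c-KG. KDM6A, an H3K27 demethylase encoded on the X chromosome, had a member (MSTRG.154690) at 1.577, 8.738 and 19.10 in SCNT4c and at 485.9, 263.9 and 332.1 in SCNT4c-TDG (5.46 ± 0.95, adjusted p = 0.000488). In SCNT4c-KG it was at 62.07, 149.7 and 102.6 (3.64 ± 0.95, adjusted p = 0.00764). The KDM6A entry differed less, at 59.16 to 81.27 in SCNT4c and 126.3 to 196.4 in SCNT4c-TDG, so the log2 ratio rose by 4.27 ± 1.03 (adjusted p = 0.0114) there and by 3.82 ± 1.03 (adjusted p = 0.0178) in SCNT4c-KG. Without SCNT4c library a the latter had an adjusted p of 0.0691. SIMC1, a SUMO-interacting protein, had a member (MSTRG.24403) at 1.748 to 4.982 in SCNT4c and 287.7 to 306.1 in SCNT4c-TDG (6.27 ± 0.77, adjusted p = 2.54e-05), with 70.24 to 100.3 in SCNT4c-KG (4.49 ± 0.77, adjusted p = 0.000407). STK35, a serine/threonine kinase, had a member (MSTRG.147002) at 2.491 to 4.732 and 102.5 to 190.2 (5.19 ± 0.67, adjusted p = 4.17e-05), with 111.7 to 216.6 in SCNT4c-KG (5.17 ± 0.67, adjusted p = 3.89e-05). At the locus of HSPA1L and HSP70.2, genes of the HSP70 chaperone family, a minor member (MSTRG.68865) rose, with 0 to 4.369 in SCNT4c and 130.4 to 185.6 in SCNT4c-TDG (5.71 ± 0.85, adjusted p = 0.00013). In SCNT4c-KG it was at 119.2 to 252.2 (5.69 ± 0.85, adjusted p = 0.000127). Its known genes were at 2285.0 to 6875.4 in SCNT4c and 1725.4 to 2450.9 in SCNT4c-TDG, and the log2 ratio rose by 6.71 ± 0.70 (adjusted p = 0.000294).

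Falls in SCNT4c-TDG included the members at the loci of FAM3D, LHFPL2, TMEM178A and GPAT2, besides CDC25B, given above. LHFPL2, a tetraspan membrane protein gene, had a member (MSTRG.24772) at 261.1, 171.3 and 120.4 in SCNT4c and 6.690, 0 and 0 in SCNT4c-TDG (-6.48 ± 1.19, adjusted p = 0.000768), with 11.43 to 66.97 in SCNT4c-KG. FAM3D, of a family of secreted cytokine-like proteins, had a member (MSTRG.112303) at 100.2 to 342.9 in SCNT4c and 0 to 4.591 in SCNT4c-TDG (-6.60 ± 1.49, adjusted p = 0.00337), with 0 to 14.25 in SCNT4c-KG. At TMEM178A the member (MSTRG.35567) was at 1921.4 to 4234.4 in SCNT4c and 30.10 to 62.74 in SCNT4c-TDG (-6.04 ± 1.10, adjusted p = 0.000713), with 22.80 to 238.6 in SCNT4c-KG. GPAT2, a mitochondrial glycerol-3-phosphate acyltransferase, shares its locus with 1 other known gene, and the member there (MSTRG.31556), with 2.20% of the locus signal, was at 106.6 to 139.5 in SCNT4c and 0 to 1.534 in SCNT4c-TDG (-6.01 ± 1.35, adjusted p = 0.0033), with 0 to 89.84 in SCNT4c-KG. The member at the locus of KDM6B, another H3K27 demethylase, and TMEM88 (MSTRG.108839) fell, with 540.5 to 676.7 in SCNT4c and 69.81 to 94.50 in SCNT4c-TDG (-2.79 ± 0.32, adjusted p = 1.31e-05), with 517.3 to 651.0 in SCNT4c-KG, whereas the KDM6A member rose. KDM6B was chosen after its values were seen.

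SCNT4c-TDG and SCNT4c-KG were also compared directly. Of 4754 members, 537 differed (11.3%), 212 higher (4.46%) and 325 lower (6.84%) in SCNT4c-TDG, against 16.2% of all features, 7.07% higher and 9.13% lower. The split turned to 356 higher and 219 lower with all libraries at the same total, where the median of all features moved from -0.02 to 0.32, so no direction is read from it. The count was 1012 in a fit of these groups alone and 258 to 337 without 1 of SCNT4c-KG replicates 1 and 2 and SCNT4c-TDG replicates 1 to 3. Of the 537, 60 reached the threshold only through the higher group. The known genes summed to a mean below 10 for 144 (26.8%).

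SATB1, an organiser of chromatin loops (chr13:5315985-5410686), showed the largest contrast between the treated groups that also crossed SCNT4c. Its member (MSTRG.109790) was at 534.0, 297.1 and 373.6 in SCNT4c, 1282.3, 1855.3 and 1083.0 in SCNT4c-KG and 13.38, 16.88 and 11.48 in SCNT4c-TDG. The known SATB1 entry held 123.7 to 248.5, 232.3 to 251.6 and 138.8 to 208.2 in the same order, a far narrower range. SCNT4c-TDG lay below SCNT4c-KG by -6.54 ± 0.50 (adjusted p = 4.9e-06) and below SCNT4c by -4.73 ± 0.50 (adjusted p = 7.3e-06) on the log2 scale. The rise in SCNT4c-KG (1.81 ± 0.50, adjusted p = 0.0111) lost its call without SCNT4c library b or SCNT4c-KG replicate 2 (adjusted p up to 0.0552). The log2 ratio to the known gene changed by -4.52 ± 0.89 in SCNT4c-TDG (adjusted p = 0.00427) but did not pass in SCNT4c-KG (1.46 ± 0.89, adjusted p = 0.245). The locus of the proline transporter gene SLC6A20 and the lipid phosphatase gene SACM1L had a member that moved in the same directions. This member (MSTRG.111270) was at 15199.7, 8466.7 and 10008.0 in SCNT4c, 77575.6, 41374.0 and 35394.0 in SCNT4c-KG and 2523.8, 2156.3 and 2363.6 in SCNT4c-TDG. It rose by 2.15 ± 0.37 (adjusted p = 0.000424) in SCNT4c-KG, changed by -2.21 ± 0.37 (adjusted p = 0.000363) in SCNT4c-TDG and differed by -4.37 ± 0.37 (adjusted p = 7.04e-06) between them. The known genes there moved in the same directions, at 527.7 to 591.1, 735.3 to 931.1 and 398.9 to 434.8 in the same order. The log2 ratio passed in neither SCNT4c-KG (1.56 ± 0.66, adjusted p = 0.1) nor SCNT4c-TDG (-1.80 ± 0.66, adjusted p = 0.0674).

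Members higher in SCNT4c-TDG than in SCNT4c-KG included CAND1, the exchange factor of cullin ubiquitin ligases. Its member (MSTRG.50046) was at 526.8, 373.6 and 545.6 in SCNT4c-TDG and 17.97, 7.614 and 37.05 in SCNT4c-KG (4.70 ± 0.77, adjusted p = 0.000939). RAB3GAP1, a regulator of RAB GTPases, had a member (MSTRG.132295) at 111.7 to 194.8 against 0 to 16.34 (4.55 ± 0.92, adjusted p = 0.00368). RSRP1, an arginine/serine-rich protein gene, had a member (MSTRG.60578) at 167.6 to 331.4 against 3.807 to 25.65 (4.70 ± 0.82, adjusted p = 0.00148). Lower in SCNT4c-TDG were the members at the locus of ACIN1, which acts in RNA processing, and C7H14orf119 (MSTRG.72737), at 13.77 to 34.29 against 715.3 to 1125.5 (-5.30 ± 0.78, adjusted p = 0.000431), and at the locus of MAPT and KANSL1 (MSTRG.105901), at 12.54 to 34.43 against 708.2 to 1404.8 (-5.54 ± 0.65, adjusted p = 9.57e-05). A member at a locus of 7 known genes including RETN, XAB2 and STXBP2 (MSTRG.23399) was at 8.362 to 21.42 against 561.4 to 819.8, with 1.577 to 8.738 in SCNT4c. It met the threshold only through SCNT4c-KG.

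From the 4-cell to the 8-cell stage few members passed the test. Of 4754 members, 160 changed (3.37%), 41 higher (0.862%) and 119 lower (2.5%) in SCNT8c, against 5.79% of all features, 2.62% higher and 3.16% lower. This count depended on single libraries, with 1510 members changed without SCNT8c replicate 3, 1 without SCNT4c library b, and 5 to 38 when SCNT8c replicate 1, SCNT8c replicate 2, SCNT4c library a or SCNT4c library c was left out. The split was 89 higher and 111 lower after quantile normalisation, 56 and 34 by edgeR and 301 and 175 by DESeq2 on recovered reads, so no direction is read from it. Of the 160, 21 reached the threshold only through the higher group. The known genes summed to a mean below 10 for 44 (27.5%).

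MIOX opens the ring of myo-inositol. Its member (MSTRG.47683) was at 112.8, 67.29 and 217.5 in SCNT4c and 949.4, 738.2 and 874.8 in SCNT8c (2.83 ± 0.42, adjusted p = 0.0106), and the call held in each fit without 1 library but not in the fit of the 2 groups alone. DDT, a homologue of the cytokine MIF, had a member (MSTRG.126100) at 7.865 to 36.28 and 115.8 to 188.7 (3.15 ± 0.61, adjusted p = 0.0189), with a call lost in 3 of 6 such fits (adjusted p up to 0.0728). The member at TIMM44, of the mitochondrial import motor (MSTRG.23386), was at 27.40 to 37.07 and 120.4 to 417.3 (2.76 ± 0.63, adjusted p = 0.0285) and lost its call in 5 of 6 (up to 0.12). A member at the locus of SMARCA2, an ATPase of SWI/SNF complexes (MSTRG.14018), was at 125.8 to 225.6 in SCNT4c and 0, 0 and 36.98 in SCNT8c (-5.75 ± 1.16, adjusted p = 0.0205), a call lost in 5 of 6 (up to 0.0812).

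The ratio of a member to the known genes of its locus cancels the scaling of the library, apart from the pseudocount. It was tested for each of 3442 members, some of which share a locus, and changed for 949 in SCNT4c-KG (27.6%), rising for 358 and falling for 591. In SCNT4c-TDG it changed for 840 (24.4%), rising for 280 and falling for 560. Without SCNT4c-TDG replicate 1, 2 or 3 that count was 497, 523 or 545. In SCNT8c it changed for 4 (0.116%), with an unadjusted p under 0.05 for 610. That count was 337 without SCNT8c replicate 3, 16 without SCNT4c library c and 0 to 9 without 1 of the others. At the 851 loci with 1 gene and 1 transcript, both tested, 93 pairs changed in the same direction in SCNT4c-KG and 35 in opposite directions. Of the 35, 26 had the transcript lower. The transcript alone changed at 160, the gene alone at 211 and neither at 352. For SCNT4c-TDG the corresponding numbers were 69 pairs, 17 pairs, 179, 242 and 344.

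Among the named ratios of the treated groups against SCNT4c, the largest fall was at TMEM178A in SCNT4c-KG. There the known genes were at 4.982 to 9.612 in SCNT4c and 656.9 to 942.9 in SCNT4c-KG, while the member was at 1921.4 to 4234.4 and 22.80 to 238.6 (ratio -11.69 ± 1.65, adjusted p = 0.000506). At other loci with large falls of the ratio the annotated gene was low in SCNT4c and higher in treated embryos. ADK, adenosine kinase, was at 0 to 3.155 in SCNT4c, 66.97 to 82.65 in SCNT4c-KG and 237.5 to 566.9 in SCNT4c-TDG. Its member (MSTRG.127812) was at 87.18 to 211.5, 6.345 to 22.87 and 84.93 to 170.3, and the log2 ratio changed by -8.01 ± 1.03 (adjusted p = 0.000294) and -7.30 ± 1.03 (adjusted p = 0.000835). In PFF nearly all ADK signal was on the gene, at 259.8 to 287.1 against 2.384 to 3.821 on the member. YWHAZ, a 14-3-3 protein gene, was at 28.23 to 37.58 in SCNT4c, 1455.5 to 2606.2 in SCNT4c-KG and 1495.1 to 3023.8 in SCNT4c-TDG. Its member (MSTRG.40036) was at 139.5 to 223.7, 32.67 to 58.42 and 34.43 to 113.5 in the same order. These ratios changed by -7.80 ± 0.57 (adjusted p = 3.34e-05) and -7.53 ± 0.57 (adjusted p = 4.97e-05).

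The same arrangement held at CAD, the enzyme that starts pyrimidine synthesis, whose entry was at 1.661 or below in SCNT4c and 164.7 to 183.6 in SCNT4c-TDG beside a member (MSTRG.36225) at 58.55 to 78.87 and 28.31 to 86.13 (ratio -7.59 ± 0.83, adjusted p = 0.000317). ZIM2, a zinc finger gene of an imprinted domain, was at 0.8303 to 5.243 in SCNT4c and 147.7 to 170.6 in SCNT4c-TDG while its member (MSTRG.58778) was at 1400.7 to 1660.3 and 307.7 to 487.4 (ratio -7.37 ± 0.69, adjusted p = 0.000156). At the locus of RPL17, a protein of the large ribosomal subunit, and C1H18orf32, the known genes were at 3.495 to 7.472 in SCNT4c and 225.4 to 406.1 in SCNT4c-KG while the member (MSTRG.6528) was at 150.3 to 563.6 and 59.85 to 107.8 (ratio -7.48 ± 0.81, adjusted p = 0.00011). At each of these 5 loci, from ADK on, the gene entry was higher in every treated library named than in any SCNT4c library, and the member was not.

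At some loci with a rise of the ratio the annotated gene was lower in the treated group. TPT1, the translationally controlled tumour protein, shares a locus with SLC25A30 whose known genes were at 14358.1 to 17966.6 in SCNT4c and 1561.3 to 2295.9 in SCNT4c-TDG, while a minor member (MSTRG.99427) was at 7.099 to 26.57 and 110.5 to 181.5 (ratio 6.45 ± 0.84, adjusted p = 0.00061). PICALM, a clathrin assembly protein gene, was at 1073.5 to 1489.5 in SCNT4c and 438.8 to 736.8 in SCNT4c-TDG, while its member (MSTRG.86437) was at 6.991 to 48.11 and 583.8 to 661.5 (ratio 5.84 ± 1.55, adjusted p = 0.0171), a call lost in 3 of 6 fits without 1 library (up to 0.0671). At the KDM6A locus, given above, the ratio rose while the gene entry was higher as well. For the RUNDC1 and RPL27 locus the ratio rose by 5.73 ± 1.11 in SCNT4c-KG (adjusted p = 0.00305) with known genes at 10.25 to 29.89 in SCNT4c and 6.345 to 48.45 in SCNT4c-KG, which overlapped.

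Some loci held members with different calls, although members were not tested against each other. The locus of CSTF1, a subunit of the mRNA cleavage stimulation factor, and the mitotic kinase gene AURKA (chr17:56954769-56985868) has 2 members. The first (MSTRG.148618) was at 371.5, 398.5 and 474.9 in SCNT4c, 1030.7, 1025.4 and 555.7 in SCNT4c-KG and 914.0, 928.2 and 1016.9 in SCNT4c-TDG. The second (MSTRG.148619) was at 517.4, 636.2 and 617.7, then 104.5, 95.18 and 203.8, then 143.8, 83.61 and 163.7. The first rose by 1.02 ± 0.39 (adjusted p = 0.0492) and 1.20 ± 0.39 (adjusted p = 0.0259), calls that were each lost in 5 of 6 fits without 1 library (up to 0.153 and 0.0778). The second fell by 2.21 ± 0.55 (adjusted p = 0.00552) and 2.22 ± 0.55 (adjusted p = 0.00579). The known genes there were at 87.18 to 111.0, 720.4 to 915.0 and 505.0 to 764.3, and the ratio of the first member fell by 1.99 ± 0.68 in SCNT4c-KG (adjusted p = 0.0467), a call lost in 6 of 6 fits without 1 library (up to 0.133), so that relative to the known genes both members were lower there. The ratio of the second member changed by -5.22 ± 0.64 (adjusted p = 0.000214) and -4.90 ± 0.64 (adjusted p = 0.00061).

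SELENOP, a selenium transport protein, shares its locus with CCDC152, and 2 members lie there. One (MSTRG.142088) was at 56.46 to 98.59 in SCNT4c, with 2 reads over SCNT4c-KG against 275 (a ratio of 80.0, exact counting interval 21.9 to 664 that covers counting error only) and 2 reads over SCNT4c-TDG (145, interval 39.7 to 1200). The other (MSTRG.142090) was at 533.9 to 786.4 in SCNT4c, 229.4 to 599.5 in SCNT4c-KG and 384.3 to 542.5 in SCNT4c-TDG, differences of -0.61 ± 0.55 (adjusted p = 0.395) and -0.41 ± 0.55 (adjusted p = 0.595). In SCNT8c it was at 124.2, 53.20 and 326.5 (-2.26 ± 0.55, adjusted p = 0.0337), a call lost in 5 of 6 fits without 1 library (up to 0.11). GAPDH, the glycolytic enzyme, lies at a locus of 13 known genes with 2 members, and these held at most 82.78 in any library beside 2439.5 to 64218.3 on the known genes.

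Lists of genes describe how members at related loci moved, beside the 32.7% and 29.7% of all members tested that changed in SCNT4c-KG and SCNT4c-TDG. Of all members tested, 12.2% rose and 20.6% fell in SCNT4c-KG, and 9.78% rose and 19.9% fell in SCNT4c-TDG. Of all features tested, 17.6% rose and 19.6% fell in SCNT4c-KG, and 15.7% rose and 17.6% fell in SCNT4c-TDG. Of 31 members at loci of oocyte and maternal genes, 4 rose and 8 fell in SCNT4c-KG (median log2 difference -1.04) and 1 rose and 12 fell in SCNT4c-TDG (median -1.31). Of 27 tested at loci of embryonic activation and pluripotency genes, 7 rose and 4 fell in SCNT4c-KG (median 0.86) and 4 rose and 4 fell in SCNT4c-TDG (median -0.11). The 23 tested at loci of chromatin and DNA methylation regulators gave 4 rises and 3 falls (median 1.06), then 6 rises and 3 falls (median 0.93). At loci of ribosomal protein genes 6 of 21 rose and 4 fell in SCNT4c-KG (median 1.22), and 5 rose and 4 fell in SCNT4c-TDG (median -0.21).

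Zinc finger loci, with 166 members tested, had 21 rises and 25 falls in SCNT4c-KG (median -0.39) and 13 rises and 21 falls in SCNT4c-TDG (median -0.11). Of 59 members at ubiquitin and proteasome loci, 12 rose and 7 fell (median -0.39), then 8 rose and 11 fell (median 0.03). Fibroblast matrix and cytoskeleton loci had 14 members tested among the embryos, with 0 rises and 1 fall in SCNT4c-KG (median 0.05) and 1 rise and 1 fall in SCNT4c-TDG (median -0.92). Of the 18 tested against PFF, 5 were higher and 6 lower in SCNT4c (median -0.52), where 39.7% and 38.5% of all features were. Only 3 members lay at histone loci, with 0 changed in SCNT4c-KG (median 0.40) and 1 lower in SCNT4c-TDG (median -1.27). A member can stand in a list through any known gene of its locus, so its own relation to the listed gene is not given by the count.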

How the data were processed

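Per the labels and the methods, the authors used Trimmomatic 0.39 for trimming, STAR 2.5.3a for alignment to Sscrofa11.1 with unique reads retained, StringTie 2.1.2 for assembly and HTSeq for counting. The strand setting is not given in the sources used here. The deposited values are a normalised signal, that is counts divided by a factor per library. Here 100.0% of values were whole multiples of 1 read, to within 0.01 reads or 0.01% of the value. Limma 3.58.1 in R 4.3.3 was run on log2(signal + 1), which understates changes of low features, over the 12 embryo libraries or over SCNT4c and PFF, for features whose mean reached 10. Alternatives used edgeR 4.0.16 and DESeq2 1.42.0 on recovered reads, other pseudocounts, filters and scalings, and left out each library in turn. Tables and figures used Python 3.11.15, pandas 2.3.3 and matplotlib 3.10.9. Known genes matched the RefSeq annotation in 99.9% of cases.

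The members and lists were chosen with earlier results of these data known. Members named are those at loci of genes the study names for RNA, and per comparison of embryos the 5 largest rises and falls without overlap of replicates, at loci with a named gene and a higher group averaging 100 or more (3 and 3 for PFF). Also named are the 4 largest ratio changes each way, examples from the 10 most abundant members and examples of the lists. Not every member that this rule selects is described. Libraries with the same replicate number deviated from their group means with correlations of -0.0611 to 0.195, and were therefore left unpaired.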

Additional observations from a re-analysis of the deposited data

Results flagged for a closer look

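In 3 of the members described above, SCNT4c-KG and SCNT4c-TDG differed from SCNT4c in opposite directions. The direct comparison of the treated groups passed the test at each. The difference SCNT4c-TDG minus SCNT4c-KG was -6.54 on the log2 scale at SATB1 (MSTRG.109790), -4.37 at the locus of SLC6A20 and SACM1L (MSTRG.111270) and -3.52 at BMP15 (MSTRG.154979). Of the rises in SCNT4c-KG against SCNT4c, that of BMP15 lost its call in 5 of 6 fits without 1 library and after quantile normalisation (0.77, adjusted p = 0.116), and that of SATB1 in 2 of 6 such fits. Of 4754 members tested, 66 were called in these 3 comparisons at once, and 10 of them had opposite signs, beside 593 and 52 of all 18942 features tested. Of the 10, 9 were higher in SCNT4c-KG and lower in SCNT4c-TDG than in SCNT4c, and 1, at the locus of LSM6, was the reverse. The comparisons with SCNT4c share its libraries.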

How the results depend on the processing

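Of the named differences, 89 kept their direction and side of the threshold in every alternative run for them and 21 did not. Many of them were chosen as the largest called changes, so this does not describe members in general. Ratios were not run with edgeR, DESeq2, other scalings or without a filter. Direction reversed in 1 case, not called, for the ZSCAN4 member in SCNT4c-TDG against SCNT4c without SCNT4c library b (-0.01, with values up to 0.84 without 1 of the other libraries). The count for SCNT4c-TDG against SCNT4c was 2172 in a fit of the 2 groups alone and, without 1 library, between 875 and 1119. For SCNT4c-TDG against SCNT4c-KG it was 1012 in such a fit, 973 with the replicate block and, without 1 library, between 258 and 391. Comparisons with SCNT4c have no replicate block, because its columns carry no number free of conflict. The count for SCNT8c against SCNT4c was 321 with a pseudocount of 10, 62 without a filter, 90 by edgeR, 476 by DESeq2, 0 in a fit of the 2 groups alone by limma, where an unadjusted p under 0.05 was found for 778 members, and 1 to 1510 without 1 library. For SCNT4c against PFF a minimum mean of 50 left 1877 changed members of 2187 tested. With a minimum mean of 50, which left fewer members to test, ratios changed for 546 of 1304 in SCNT4c-KG, 542 of 1304 in SCNT4c-TDG and 978 of 1215 in SCNT4c against PFF. For SCNT4c-TDG they changed for 497 to 656 members without 1 library. For SCNT8c they changed for 16 with a pseudocount of 0.1, 109 with a pseudocount of 10, 0 in a fit of the 2 groups alone by limma, against an unadjusted p under 0.05 for 362, and 0 to 337 without 1 library, the highest without SCNT8c replicate 3. Members held over 90% of their locus signal in 965 cases, and over 50% in 1310 of 2388 with a mean of at least 50. The cause of these shifts was not tested. With 3 libraries per group and as few as 12354649 reads in a library, members near the threshold rest on few reads.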
